A study of Mus musculus with 4 samples.

Results

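The mitochondrial SLC25 carriers and the TIM and TOM protein import genes were examined in MN1 leukemic mouse bone marrow and in mature myeloid marrow cells of healthy mice. Members were all genes whose symbol is Slc25a, Timm or Tomm followed by a number, apart from the iron and glycine carriers Slc25a37 and Slc25a38, and the probe set of highest mean signal over the 4 arrays stood for each gene. The rule found 65 genes, 42 SLC25 carriers and 23 TIM or TOM genes, among 18193 genes that had a probe set of their own. Of these, 59 passed the filter on low signals and were tested, 37 SLC25 carriers and 22 TIM or TOM genes, among 12378 tested genes.

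The 4 arrays measured total RNA of C57BL/6J marrow, with 2 arrays per group that the series' design text calls biological replicates. The MN1 leukemic arrays came from marrow of leukemic mice. Their disease began from marrow of mice given 150 mg/kg fluorouracil 4 days earlier, cultured for 48 hours with human interleukin-6 at 10 ng/ml, murine interleukin-3 at 6 ng/ml and murine stem cell factor at 20 ng/ml. MN1, a transcriptional coregulator, was brought in by a GFP-marked retrovirus from GP+ E86 producer cells, and GFP-positive cells were injected into syngeneic recipients irradiated with 750 cGy together with fresh marrow cells. The Gr1/Mac1 arrays came from Gr1-positive, CD11b-positive marrow cells of healthy mice. The labels attach the transduction protocol to these arrays as well, but the design text places the cells in healthy mice. The sources used here do not say whether leukemic marrow was sorted for GFP again before RNA extraction, so residual host and helper cells may be part of it.

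Most SLC25 proteins sit in the inner mitochondrial membrane and exchange metabolites such as ADP, ATP, phosphate, citrate and amino acids between cytosol and matrix. Nearly all mitochondrial proteins are made in the cytosol. The TOM complex carries them through the outer membrane, and the TIM23 complex takes those with a presequence into the matrix. The small TIM chaperones hand carrier proteins, including SLC25 proteins of the inner membrane, to the TIM22 complex.

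In the deposited table Mn1 itself was dim and below the filter, at signals of 17.7 and 92.6 in leukemic marrow, against 3.92 and 12.1 in Gr1/Mac1 cells. Whether its 1 probe set reads the retroviral MN1 transcript is not stated, so these signals do not measure the introduced MN1. Itgam, which encodes CD11b, read 584 and 306 in leukemic marrow, against 4288 and 4407 in Gr1/Mac1 cells. Summed signals of 11 stem and progenitor markers ran from 47418 to 48485 in the leukemic arrays and from 6216 to 6371 in the Gr1/Mac1 arrays, with 9 of 11 tested markers higher. The 11 measured erythroid markers summed to between 98478 and 124125 in the leukemic arrays and between 5788 and 10754 in the Gr1/Mac1 arrays, with 9 of 10 tested markers higher. The 10 megakaryocyte and mast cell markers summed to 56036 to 69637 in the leukemic arrays and to 11502 to 14394 in the Gr1/Mac1 arrays, with 6 of 10 higher. Most of the leukemic sums came from the mast cell genes Ms4a2 (25534 and 34597) and Cpa3 (15962 and 19543). Most of the Gr1/Mac1 sums came from Hdc, at 10202 and 13249, against 7991 and 8320 in leukemic marrow. Of the megakaryocyte markers, Itga2b and Vwf were called higher, and Pf4, Gp9 and Gp1bb did not pass. The 14 measured mature myeloid markers summed to 267619 to 466686 in the leukemic arrays and to 408200 to 520025 in the Gr1/Mac1 arrays, and 8 of 14 were lower. None of the B and plasma cell markers was higher in leukemic marrow, with 2 of 8 tested lower, and of the T and NK cell markers 3 were tested and 1 was lower. The part of this cell mixture in the results on carriers and import genes was not tested, and fewer cells of a type and less RNA per cell cannot be told apart in bulk RNA.

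Values are MAS5 signals, linear brightness units scaled by the authors, and fold changes are MN1 leukemic minus Gr1/Mac1 on the log2(signal + 16) scale. A gene was called when its limma adjusted p (Benjamini-Hochberg over all tested genes) was below 0.05. By this rule 43.4% of all tested genes were called, 27.5% as higher in leukemic marrow and 15.9% as lower. The median over all of them was 0.28. Of the 22 tested TIM and TOM genes, 14 rose (63.6%), 1 fell (4.55%) and 7 did not pass. Of the 37 tested SLC25 carriers, 9 rose (24.3%), 3 fell (8.11%) and 25 did not pass. The median log2 fold change was 1.09 for the TIM and TOM genes and 0.37 for the SLC25 carriers, but turned to -0.22 and -0.86 when each group was scaled to its hybridization controls, where the median of all genes was -0.95. On the reported scale 19 of 22 TIM and TOM genes but 21 of 37 SLC25 carriers lay above the median of all tested genes. Under the scaling to the controls these counts were 17 and 20. The SLC25 median minus that of all genes was 0.09 as reported. Over the alternatives it ran from -0.058 without leukemic replicate 2 to 0.29 without leukemic replicate 1. Signals did not overlap between the groups in any of the 27 called members, which holds for 100% of all 5375 called genes and for 74.2% of all tested genes, so it is no mark of the members.

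**Figure D1:**
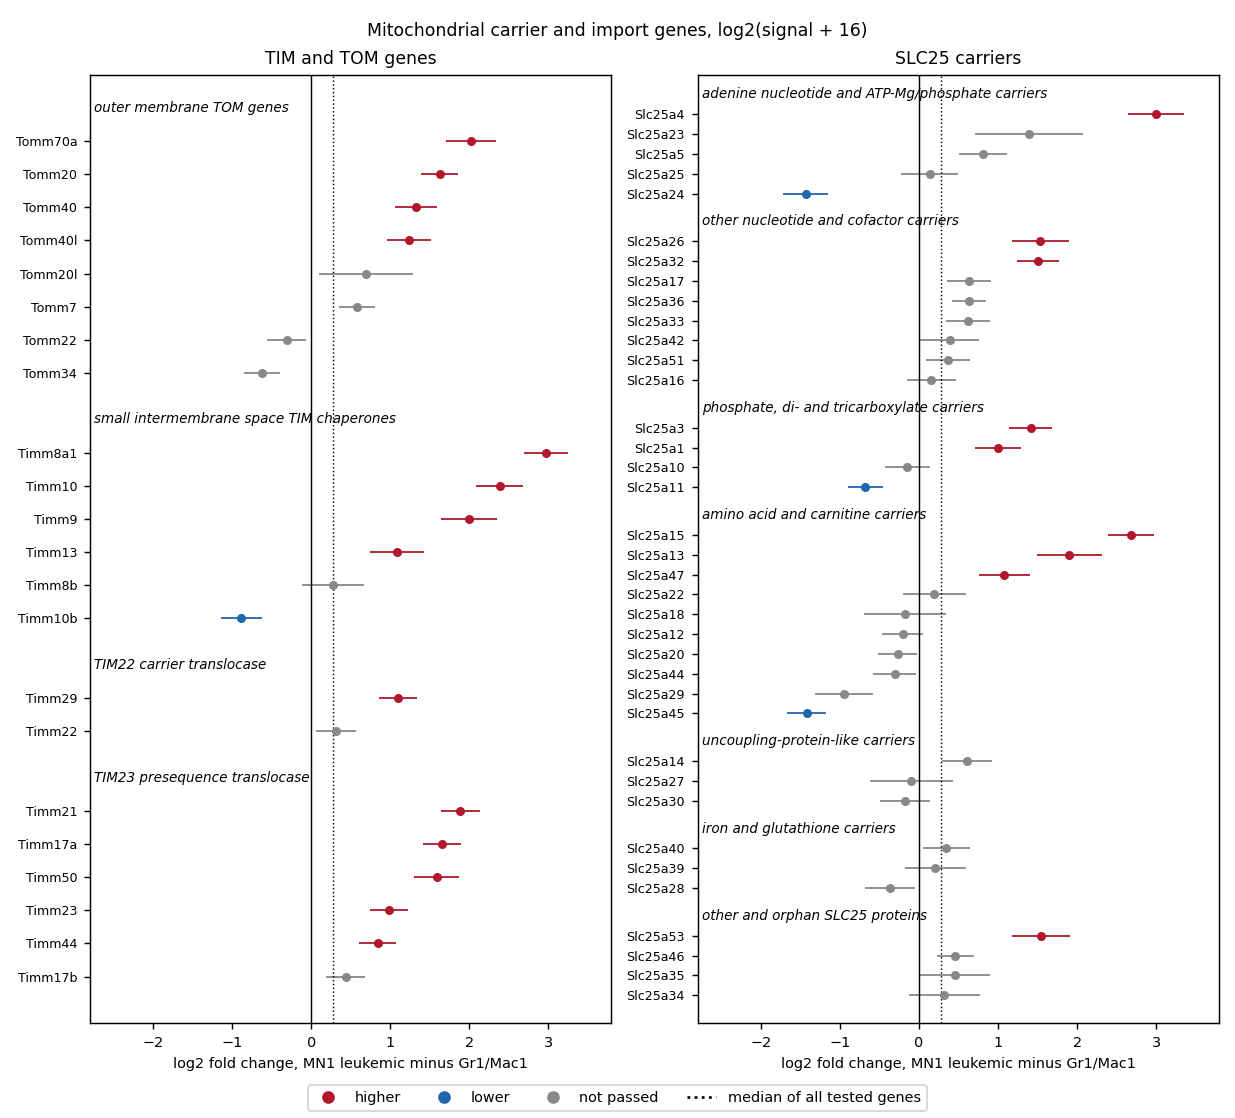
Log2 fold change of each tested member, MN1 leukemic minus Gr1/Mac1 (x axis), by role (y axis), with points coloured by call, bars of 1 SE from limma (n = 2 arrays per group) and a dotted line at the median of all 12378 tested genes. The TIM and TOM genes lie mostly right of the dotted line, with 14 of 22 called higher, while the carriers lie on both sides with 9 of 37 called higher; scaled to the hybridization controls the medians of both panels fall below 0.

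The outer membrane genes that rose included 2 import receptors and the pore. Tomm70a, the receptor for carrier precursors, read 4237 and 4528 in leukemic marrow, against 790 and 1440 in Gr1/Mac1 cells. Its log2 fold change was 2.02 ± 0.32 (SE, limma adjusted p = 0.0029), and both leukemic arrays lay far above both Gr1/Mac1 arrays. Tomm20, the presequence receptor, read 25406 and 23566 in leukemic marrow and 7461 and 8400 in Gr1/Mac1 cells. It was 1.63 ± 0.24 higher (SE, limma adjusted p = 0.0023), and all 6 of its probe sets were called higher when each probe set was tested, at 1.61 to 2.49. Tomm40, the channel of the complex, read 835 and 835 in leukemic marrow, against 358 and 294 in Gr1/Mac1 cells, and rose by 1.32 ± 0.26 (SE, limma adjusted p = 0.0072). Its paralog Tomm40l read 592 and 630 in leukemic marrow and 269 and 230 in Gr1/Mac1 cells, and was 1.24 ± 0.28 higher (SE, limma adjusted p = 0.011); scaled to the hybridization controls it stood at -0.035. The leukemic arrays were nearly equal to each other for both channel genes.

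The other 4 outer membrane genes did not pass. Tomm7, a small subunit of the complex, had a log2 fold change of 0.58 (limma adjusted p = 0.078). Its dimmer probe sets lay at -0.39, 0.96 and 0.42, and none was called when each was tested. The probe set at -0.39 is the one without suffix _x_at, _s_at or _a_at. Tomm22, the central receptor, lay at -0.31 (limma adjusted p = 0.35), and its dimmer second probe set read 0.90 with overlapping arrays. Tomm34, a cytosolic cochaperone of import, lay at -0.62 (limma adjusted p = 0.063), with both leukemic arrays below both Gr1/Mac1 arrays. Tomm20l was dim in all arrays, at 0.70 (limma adjusted p = 0.38).

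The small chaperones of the intermembrane space held the largest fold changes of the 22 tested TIM and TOM genes, in Timm8a1 and Timm10. They work as hexamers, Timm9 with Timm10 and Timm8 with Timm13. Timm8a1 read 4180 and 5126 in leukemic marrow, against 698 and 474 in Gr1/Mac1 cells, a log2 fold change of 2.97 ± 0.27 (SE, limma adjusted p = 5.7e-04). A dimmer second probe set of Timm8a1 was also called higher when each probe set was tested, but at 1.90. Timm10 read 2805 and 2834 in leukemic marrow and 682 and 406 in Gr1/Mac1 cells, a log2 fold change of 2.38 ± 0.30 (SE, limma adjusted p = 0.0014). Its partner Timm9 read 356 and 339 in leukemic marrow and 84.6 and 65.7 in Gr1/Mac1 cells, which gave a 4.01-fold rise (SE of the log2 fold change 0.35, limma adjusted p = 0.0044). For these 3 genes the leukemic signals were several times those of the mature cells in every array. Timm13, the partner of Timm8, rose less, with 3184 and 3544 in leukemic marrow and 2227 and 1112 in Gr1/Mac1 cells (1.09 ± 0.35, SE, limma adjusted p = 0.040; -0.24 under scaling to the hybridization controls). The Gr1/Mac1 arrays differed from each other for Timm13, and its call was lost without either leukemic array or without Gr1/Mac1 replicate 2.

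Timm10b moved the other way. This chaperone, whose human counterpart is a part of the TIM22 complex, read 917 and 1057 in leukemic marrow, against 2161 and 1553 in Gr1/Mac1 cells, and fell by 0.88 ± 0.26 (SE, limma adjusted p = 0.031). Of its 4 probe sets, 2 were called lower and the others were not called. The call was lost without either leukemic array, without Gr1/Mac1 replicate 1, with the mean of its probe sets and without the variance trend. It was also lost without probe sets of suffix _x_at, _s_at and _a_at, where Timm10b stood at -0.034. Timm8b overlapped between the groups, at 724 and 1102 in leukemic marrow and 1044 and 513 in Gr1/Mac1 cells. Timm8a2 was below the filter.

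In the TIM22 complex, which inserts carriers into the inner membrane, Timm29 read 1310 and 1302 in leukemic marrow and 653 and 554 in Gr1/Mac1 cells. It was 1.10 ± 0.24 higher (SE, limma adjusted p = 0.010), but -0.21 when scaled to the hybridization controls. The channel gene Timm22 did not pass, at 0.32 (limma adjusted p = 0.35) and -0.99 under that scaling.

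In the TIM23 complex 5 of 6 genes rose (83.3%, against 27.5% of all tested genes). Timm21, which links the complex to TOM, read 1744 and 2064 in leukemic marrow, against 467 and 539 in Gr1/Mac1 cells (1.89 ± 0.24, SE, limma adjusted p = 0.0016). Timm17a, a core subunit, read 2793 and 3437 in leukemic marrow and 1049 and 906 in Gr1/Mac1 cells (1.65 ± 0.24, SE, limma adjusted p = 0.0022). Timm50, the presequence receptor, read 1065 and 1181 in leukemic marrow and 435 and 302 in Gr1/Mac1 cells (1.59 ± 0.28, SE, limma adjusted p = 0.0046). In all 3 genes the lower leukemic array was more than 2-fold above the higher Gr1/Mac1 array. Timm50 lost its call when probe sets with suffix _x_at, _s_at or _a_at, which may match more than 1 transcript, were dropped, and without leukemic replicate 2. Timm23, the channel, read 9369 and 9110 in leukemic marrow and 5373 and 4052 in Gr1/Mac1 cells (0.98 ± 0.24, SE, limma adjusted p = 0.017). Timm44, which ties the matrix Hsp70 motor to the channel, rose by 0.84 (limma adjusted p = 0.025). Timm17b did not pass, at 2352 and 3170 in leukemic marrow and 1941 and 2092 in Gr1/Mac1 cells. Under scaling to the hybridization controls Timm23 stood at -0.34, Timm44 at -0.48 and Timm17b at -0.89.

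**Figure D2:**
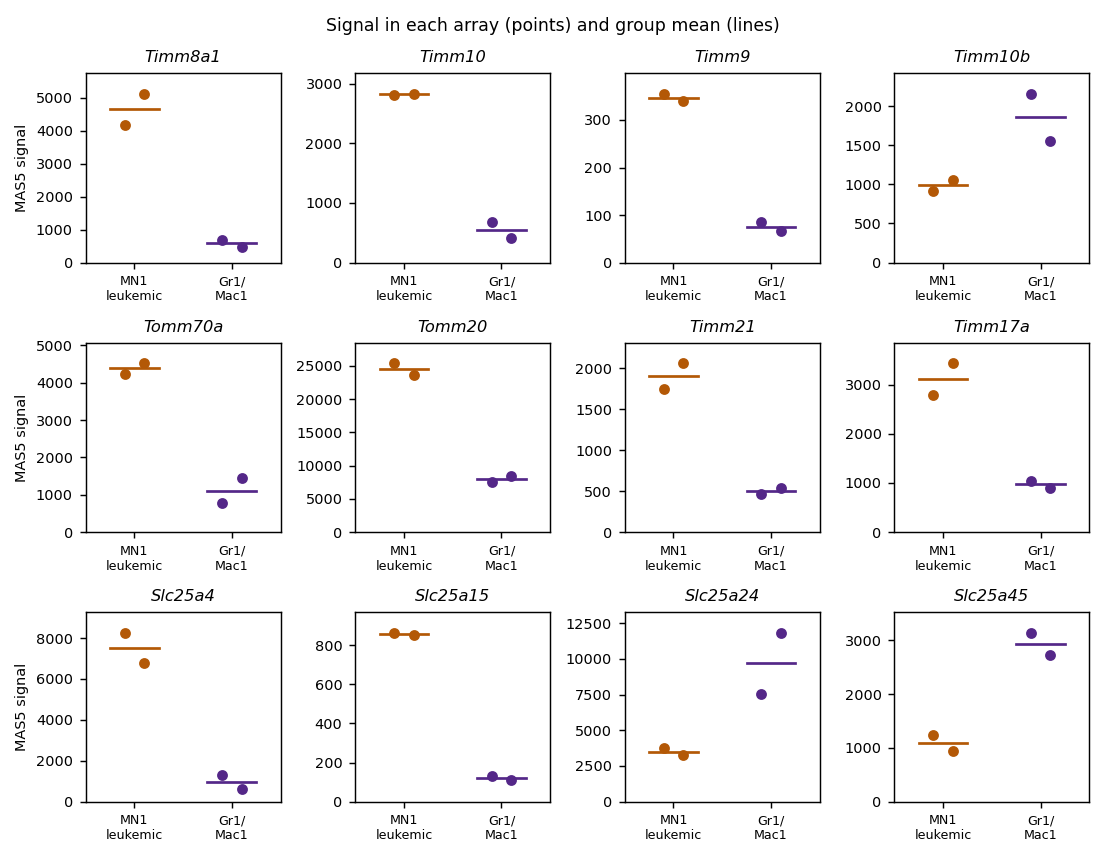
MAS5 signal (y axis, linear, from 0) of 12 members in each array, with points for arrays and lines for group means of the 2 MN1 leukemic and the 2 Gr1/Mac1 arrays. The groups do not overlap in any panel, which holds for 100% of all 5375 called genes. Timm10b, Slc25a24 and Slc25a45 are lower in leukemic marrow and the other 9 are higher.

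Among the adenine nucleotide carriers, Slc25a4 rose and Slc25a24 fell. Slc25a4, the ADP/ATP exchanger known from heart and muscle, read 8267 and 6781 in leukemic marrow, against 1329 and 640 in Gr1/Mac1 cells, and rose 7.99-fold (SE of the log2 fold change 0.36, limma adjusted p = 0.0013). This was the largest fold change of the 59 tested members. Slc25a24, a calcium-regulated carrier of ATP-Mg and phosphate, read 3731 and 3264 in leukemic marrow and 7552 and 11838 in Gr1/Mac1 cells, and fell by 1.43 ± 0.28 (SE, limma adjusted p = 0.0068). Its call was lost without leukemic replicate 2. The ubiquitous exchanger Slc25a5 read 29061 and 25428 in leukemic marrow and 19493 and 12288 in Gr1/Mac1 cells, which did not pass at 0.81 ± 0.31 (SE, limma adjusted p = 0.069). Its 8 probe sets gave different calls: the 4 brightest lay at 0.72 to 0.81 and were not called, and the 4 dimmer ones lay at 0.99 to 1.70 and were called higher. Of the other carriers of ATP-Mg and phosphate, Slc25a25 read 186 and 161 in leukemic marrow and 178 and 137 in Gr1/Mac1 cells. Slc25a23 was dim, at 73.1 and 90.7 in leukemic marrow and 5.34 and 48.7 in Gr1/Mac1 cells, and neither passed.

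Of 8 other nucleotide and cofactor carriers, 2 rose (25%, against 27.5% of all tested genes) and none fell (against 15.9%). Slc25a26, the importer of the methyl donor S-adenosylmethionine, read 324 and 241 in leukemic marrow, against 87.1 and 84.7 in Gr1/Mac1 cells (1.54 ± 0.36, SE, limma adjusted p = 0.014). Slc25a32, the folate carrier, read 746 and 741 in leukemic marrow and 268 and 235 in Gr1/Mac1 cells (1.51 ± 0.27, SE, limma adjusted p = 0.0046). Both genes lost their calls without either leukemic array, though their groups lay far apart. The pyrimidine nucleotide carriers did not pass. Slc25a36 read 3980 and 4581 in leukemic marrow and 2766 and 2738 in Gr1/Mac1 cells (0.63, limma adjusted p = 0.055), and Slc25a33 read 476 and 587 in leukemic marrow and 346 and 333 in Gr1/Mac1 cells (0.61, limma adjusted p = 0.12).

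Of 4 carriers of phosphate and organic acids, 2 rose (50%, against 27.5% of all tested genes) and 1 fell (25%, against 15.9%). Slc25a3, which brings in phosphate for ATP synthesis, read 35252 and 31683 in leukemic marrow, against 14500 and 10844 in Gr1/Mac1 cells (1.41 ± 0.27, SE, limma adjusted p = 0.0060). A second, dim probe set of Slc25a3 read -0.091 with overlapping arrays. Slc25a1, the citrate exporter, read 806 and 1130 in leukemic marrow and 415 and 533 in Gr1/Mac1 cells (1.00 ± 0.29, SE, limma adjusted p = 0.030), with -0.30 under scaling to the hybridization controls. Slc25a11, the exchanger of oxoglutarate and malate, read 2561 and 2306 in leukemic marrow and 4038 and 3771 in Gr1/Mac1 cells, and fell by 0.68 ± 0.22 (SE, limma adjusted p = 0.042). It was the smallest called change, and its call was lost when any array but Gr1/Mac1 replicate 2 was left out, as was that of Slc25a1. The dicarboxylate carrier Slc25a10 overlapped, at -0.15.

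Of 10 tested amino acid and carnitine carriers, 3 rose (30%, against 27.5% of all tested genes) and 1 fell (10%, against 15.9%). Slc25a15, the ornithine carrier of the urea cycle, read 865 and 850 in leukemic marrow, against 132 and 109 in Gr1/Mac1 cells, a log2 fold change of 2.68 ± 0.29 (SE, limma adjusted p = 8.9e-04). Slc25a13, the aspartate and glutamate exchanger called citrin, read 464 and 324 in leukemic marrow and 125 and 66.4 in Gr1/Mac1 cells (1.90 ± 0.41, SE, limma adjusted p = 0.0097), and its call was lost without leukemic replicate 1. In both genes the lower leukemic array was more than 2-fold above the higher Gr1/Mac1 array. Slc25a47, known as a liver carrier, read 321 and 304 in leukemic marrow and 133 and 147 in Gr1/Mac1 cells (1.08 ± 0.32, SE, limma adjusted p = 0.033; -0.16 under scaling to the hybridization controls). Slc25a45 read 1233 and 949 in leukemic marrow and 3143 and 2728 in Gr1/Mac1 cells, and fell by 1.42 ± 0.25 (SE, limma adjusted p = 0.0041), though not past the threshold without leukemic replicate 2. Slc25a12, the paralog of citrin, overlapped at 3291 and 2463 in leukemic marrow and 3727 and 2911 in Gr1/Mac1 cells. The carnitine carrier Slc25a20 overlapped as well, at -0.27, and Slc25a29, a carrier of basic amino acids, lay at -0.95 (limma adjusted p = 0.077). When each of the 5 probe sets of Slc25a29 was tested, a dimmer one was called lower at -1.87 and the others were not called.

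Both glutamate carriers overlapped between the groups. Slc25a22 read 338 and 351 in leukemic marrow, within the 204 and 434 of Gr1/Mac1 cells, and the dim Slc25a18 read 53.8 and 39.8 in leukemic marrow and 47.3 and 62.2 in Gr1/Mac1 cells. None of the 3 uncoupling-protein-like carriers and none of the 3 iron and glutathione carriers was called by limma, against 43.4% of all tested genes. The lowest unadjusted limma p of these 6 was 0.099, in Slc25a14. With so few genes this says little. The glutathione carrier Slc25a39 overlapped, at 8044 and 11772 in leukemic marrow and 12043 and 5903 in Gr1/Mac1 cells. When each of its 4 tested probe sets was tested, a dimmer one was called higher at 0.96 and the others were not called. Slc25a40, the relative of Slc25a39, read 340 and 404 in leukemic marrow and 262 and 316 in Gr1/Mac1 cells. Of 4 tested orphan or other carriers, 1 rose (25%, against 27.5% of all tested genes). It was Slc25a53, with 287 and 297 in leukemic marrow and 72.6 and 110 in Gr1/Mac1 cells (1.54 ± 0.37, SE, limma adjusted p = 0.014).

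Of the 32 tested members that did not pass, 13 had both leukemic arrays above both Gr1/Mac1 arrays, 4 had both below, and 15 overlapped. Of all tested genes that did not pass, 54.3% did not overlap, 32.5% with the leukemic arrays above and 21.8% with them below. The adjusted p of the 32 members in limma ran between 0.055 and 0.90, and the median SE of a member's log2 fold change was 0.29. A difference near this SE was not detectable with 2 arrays per group. The 6 members below the filter were Slc25a31, Slc25a41, Slc25a2, Slc25a48, Slc25a54 and Timm8a2, with signals between 0.682 and 58.1. The filter kept mean signals from 47.6 up, which left Slc25a2 just outside at a mean of 45.0 and Tomm20l just inside at 49.8. Tomm20l and Slc25a23 passed only through their leukemic arrays, with Gr1/Mac1 means of 35.9 and 27.0. The filter thus partly set their place among the 13 members with both leukemic arrays above. The same holds for their place among the genes above the median of all tested genes.

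Paralogs were set against each other within each array, since a ratio of 2 genes of one array does not move with its scaling, apart from the added 16. A ratio's own level has no meaning across different probe sets, so each is given as a log2 difference to the mean ratio of the 2 Gr1/Mac1 arrays. Of 11 listed pairs 10 had both genes tested, and in 7 of them the ratios did not overlap between the groups, including one that shifted by only 0.08, so that count by itself says little. An exact permutation test over 4 arrays cannot give a two-sided p below 0.33, and adjusted over the 10 pairs the lowest was 0.476. Slc25a5 over Slc25a4 lay at -2.23 and -2.14 in leukemic marrow and at -0.19 and 0.19 in Gr1/Mac1 cells, a 4.55-fold shift toward Slc25a4. That shift rests on the brightest probe set of each gene. Dimmer probe sets lay at 0.99 to 1.70 for Slc25a5 and at 2.65 for Slc25a4, which would give a smaller shift. Slc25a13 over Slc25a12 lay at 2.15 and 2.07 in leukemic marrow and at 0.21 and -0.21 in Gr1/Mac1 cells. Each of these ratios shifted the same way in both leukemic arrays, and by far more than the Gr1/Mac1 arrays differed.

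Slc25a24 over Slc25a25 shifted by -1.57. The shift of Slc25a24 over Slc25a23 depends on the pseudocount, since Slc25a23 is so dim: it was -2.83 with 16 added, -3.65 with 1 and -2.14 with 64. Among the import genes, Timm8a1 over Timm8b lay at 2.84 and 2.54 in leukemic marrow and at -0.23 and 0.23 in Gr1/Mac1 cells. The dimmer probe set of Timm8a1 lay at 1.90, against 2.97 for the one used, which would give a smaller shift. Timm17a over Timm17b lay at 1.28 and 1.15 in leukemic marrow and at 0.16 and -0.16 in Gr1/Mac1 cells. The channel genes moved together, with Tomm40 over Tomm40l shifted by 0.08. The pairs Slc25a22 over Slc25a18, Slc25a33 over Slc25a36 and Slc25a39 over Slc25a40 overlapped between the groups, with shifts of 0.37, -0.02 and -0.14.

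**Figure D3:**
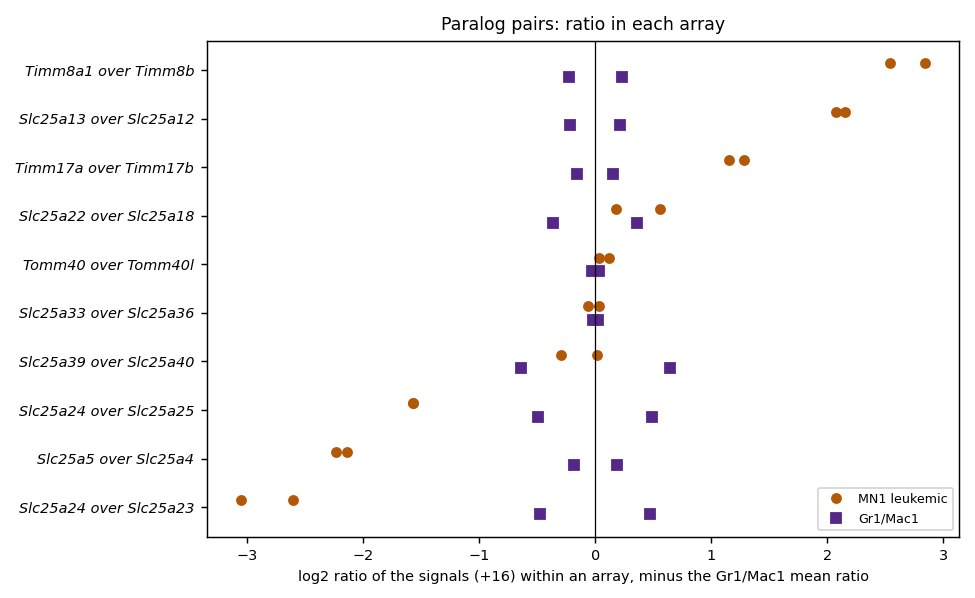
Log2 ratio of 2 paralogs within an array, minus the mean ratio of the Gr1/Mac1 arrays (x axis), for 10 pairs (y axis), with circles for the 2 MN1 leukemic and squares for the 2 Gr1/Mac1 arrays. Timm8a1 over Timm8b, Slc25a13 over Slc25a12 and Timm17a over Timm17b lie to the right in leukemic marrow, Slc25a5 over Slc25a4 and both ratios of Slc25a24 lie to the left, and 3 pairs overlap.

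Other genes of mitochondrial import and transport were read as a further list of 61 genes, of which 5 had no probe set naming them alone and 55 were tested. The list was chosen with earlier results of these data known, so its shares are no independent support. Of the 55 tested, 36 rose (65.5%, against 27.5% of all tested genes) and 1 fell (1.82%, against 15.9%), with a median of 1.06. By role, 13 of 15 genes of intermembrane space oxidation and outer membrane assembly rose, 7 of 9 motor and matrix chaperone genes, 10 of 16 processing and protease genes, and 6 of 15 other transport genes. Hspa9, the matrix Hsp70 that pulls precursors in, read 6730 and 9547 in leukemic marrow, against 471 and 369 in Gr1/Mac1 cells (4.21 ± 0.27, SE, limma adjusted p = 1.9e-04). Pitrm1, which degrades cleaved presequences, read 3453 and 4838 in leukemic marrow and 462 and 243 in Gr1/Mac1 cells (3.54 ± 0.35, SE, limma adjusted p = 7.1e-04). The chaperonin genes rose as well. Hspe1 read 3913 and 5057 in leukemic marrow and 785 and 182 in Gr1/Mac1 cells, at 3.49, and Hspd1 read 13040 and 11959 in leukemic marrow and 2227 and 1626 in Gr1/Mac1 cells, at 2.70. The gene that fell was Sfxn5, a sideroflexin, with 386 and 190 in leukemic marrow and 3944 and 3962 in Gr1/Mac1 cells (-3.79 ± 0.35, SE, limma adjusted p = 5.5e-04). No array of either group overlapped the other for these 5 genes, but this holds for 100% of all 5375 called genes.

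Promoter windows of 250 bases before to 50 bases after the annotated start were found in RefSeq (GRCm38.p6) for 53 of the 65 members. They were searched on both strands for 4 motifs chosen with the expression results known: the E-box CACGTG, which MYC and related factors bind, GCGC, any 2 bases and GCGC again for NRF1, CCGGAAGT of ETS factors and AAGATGGC of YY1. No hits of different motifs overlapped in the members' windows. The E-box letters were present in 12 of 53 members (22.6%), among them 7 of 19 members called higher, 0 of 4 called lower and 4 of 26 that did not pass. They were present in 8.91% of 17492 protein-coding genes with a window and in 5 of 49 other import and transport genes (10.2%). In that list the NRF1 letters were in 11 of 49 genes (22.4%), the YY1 letters in 6 (12.2%) and the ETS letters in 7 (14.3%). The NRF1 letters were in 9.43% of members against 9.61% of those protein-coding genes, and the YY1 letters in 3.77% against 3.57%. The ETS letters were in 6 of 20 TIM and TOM genes (30.0%) and 1 of 33 SLC25 carriers (3.03%), against 5.69% of protein-coding genes. Windows were not matched for base composition, the shares carry no test, and a match describes letters, not binding.

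In 6 of the 7 called-higher members with an E-box the letters lie before the start. These stretches are shown because they belong to members described above that rose by 1.00 to 2.97 on the log2 scale, with the E-box in capitals and up to 40 bases on each side, 5′ to 3′ on the gene's strand. All 6 genes lie on the minus strand. The stretches are chrX:134541861-134541920 for Timm8a1, chr12:71136688-71136773 for Timm9, chr8:126946002-126946087 for Tomm20, chr8:22398309-22398394 for Slc25a15, chr6:6217253-6217338 for Slc25a13 and chr16:17928413-17928469 for Slc25a1.
Timm8a1: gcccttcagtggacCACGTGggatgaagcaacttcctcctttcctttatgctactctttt
Timm9: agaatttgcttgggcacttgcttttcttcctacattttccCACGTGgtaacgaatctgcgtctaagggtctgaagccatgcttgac
Tomm20: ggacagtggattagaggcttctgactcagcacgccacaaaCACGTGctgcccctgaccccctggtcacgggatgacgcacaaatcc
Slc25a15: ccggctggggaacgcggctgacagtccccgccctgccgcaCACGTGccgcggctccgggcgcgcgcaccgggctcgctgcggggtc
Slc25a13: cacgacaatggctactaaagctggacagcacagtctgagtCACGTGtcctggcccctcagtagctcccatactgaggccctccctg
Slc25a1: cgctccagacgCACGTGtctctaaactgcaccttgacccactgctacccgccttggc

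The first base of the capitals lies 236 bases before the start in Timm8a1, 58 in Timm9, 126 in Tomm20, 77 in Slc25a15, 125 in Slc25a13 and 239 in Slc25a1. The called-higher member whose E-box lies after the start is Timm10.

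The arrays of the groups differed in more than these genes. The 3′ to 5′ signal ratio of the actin control, a sign of RNA quality and labelling, was 3.28 and 3.09 for leukemic marrow, against 1.32 and 1.39 for Gr1/Mac1 cells. The Gapdh control gave 3.94 and 3.68 for leukemic marrow, against 1.82 and 2.18 for Gr1/Mac1 cells. The geometric mean of 18 hybridization control probe sets came to 11918 and 8950 for leukemic marrow, against 4044 and 4168 for Gr1/Mac1 cells. The part of RNA quality in the calls was not tested. Scaling each group to these controls lowered the median of all genes to -0.95. It left 4 of 59 tested members called higher, against 8.75% of all tested genes, and 23 called lower, against 48%. The distance of the TIM and TOM median above that of all genes was 0.82 on the reported scale and 0.73 under that scaling. Of the 27 called members, Slc25a4, Slc25a15, Timm8a1 and Timm10 kept their call under every alternative that could be run for them, and Tomm70a, Tomm20, Timm9, Timm21 and Timm17a lost it only under that scaling. Without leukemic replicate 1 the calls of 14 of the 27 were lost and without leukemic replicate 2 those of 16, with Tomm40, Tomm40l, Timm13, Timm10b, Timm29, Timm23, Timm44, Slc25a26, Slc25a32, Slc25a1, Slc25a11, Slc25a47 and Slc25a53 in both sets. Without Gr1/Mac1 replicate 1 or 2 the calls of 3 and 1 were lost.

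**Figure D4:**
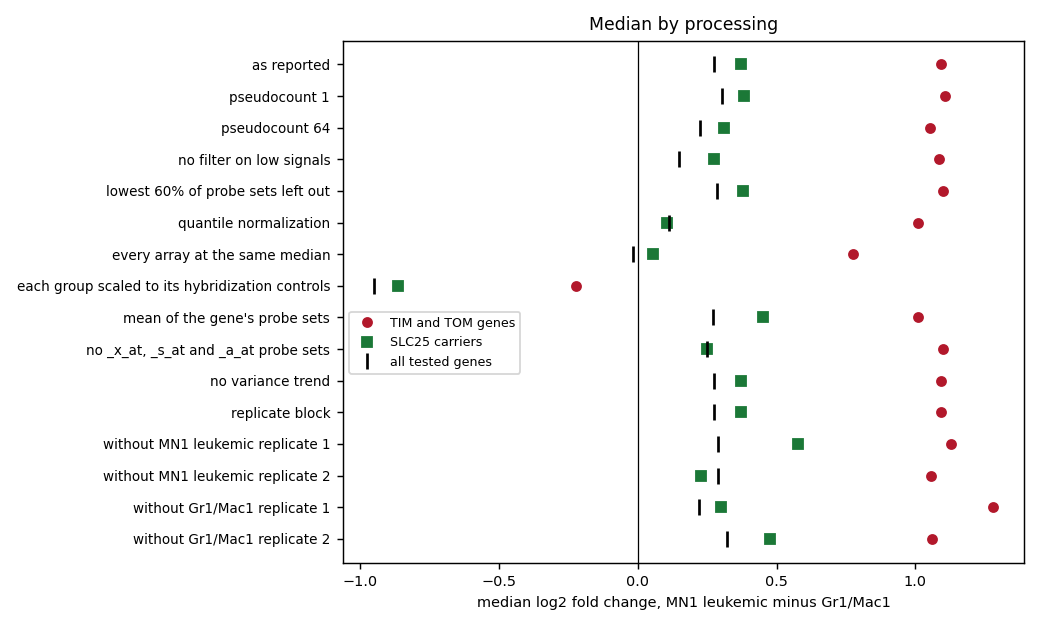
Median log2 fold change, MN1 leukemic minus Gr1/Mac1 (x axis), of the tested TIM and TOM genes (circles), SLC25 carriers (squares) and all genes (bars) under the reported processing and each alternative (y axis). The TIM and TOM median is right of that of all genes in each line, while all 3 medians lie below 0 when the groups are scaled to their hybridization controls, at -0.22, -0.86 and -0.95.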

How the data were processed

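RNA was compared over 4 single-colour arrays. The authors deposited linear intensities, made with MAS5 in GCOS 1.3.0 per the submitters' processing notes. Neither the scaling target nor the present calls are stated in the labels or notes read for these results. Means trimmed by 2% at each end came to 500.003 or 500.004 in each array, which shows 1 scaling for all. The platform annotation gave 1 symbol to 34945 of 45037 non-control probe sets, several to 932 and none to 9160.

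The test ran on log2(signal + 16), with no further scaling, after dropping the dimmest 40% of probe sets by mean signal; 27022 stayed, with a lowest mean of 47.6, and the brightest of a gene stood for it. limma 3.58.1 under R 4.3.3 fitted the group difference (lmFit, then eBayes with its trend option, two-sided). p-values were adjusted by Benjamini-Hochberg across the 12378 genes and called below 0.05. There were 2 residual degrees of freedom, raised to 6.90 by moderation. The number of arrays limits the precision. The steps were tested on simulated data. Python 3.11.15 searched promoter letters and matplotlib 3.10.9 drew the figures.

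Members, gene lists, pairs and motifs were chosen with earlier results of these data known. Array values are given, in each role, for up to 4 called members higher and 4 lower by fold change, for both genes of each paralog pair with both tested, and for up to 4 called genes in each direction of the other import list. Alternatives changed the pseudocount (1 or 64), the filter (none, or 60% dropped), the scaling (quantile, common median, or 1 factor per group from its hybridization controls), the probe sets (mean per gene, or without suffixes _x_at, _s_at and _a_at) and the variance trend. Others added a replicate block or dropped 1 array, which assumes that a lone array varies like the other group. Nothing in the labels pairs arrays by number.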

Additional observations from a re-analysis of the deposited data

How the results depend on the processing

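The 2 arrays per group and the scaling limit these results. The count of members called higher was 23 as reported, 15 with every array at the same median and 4 with each group scaled to its hybridization controls, and that of TIM and TOM genes was 14, 8 and 2. For SLC25 carriers it was 9 as reported and 2 with the controls. Of all tested genes 27.5% were called higher as reported, 18.3% at the same median and 8.75% with the controls. Members called lower numbered 4 as reported, 23 with the controls and 2 without a variance trend. The shares of all tested genes called lower were 15.9%, 48% and 13.7%. Of the other import and transport genes 36 were called higher as reported, 23 at the same median and 6 with the controls. With 1 array left out, members called higher ranged between 11 and 24, members called lower between 0 and 6, carriers higher between 3 and 10, TIM and TOM genes higher between 7 and 15, and other import genes higher between 17 and 40. Across all genes the calls were 3403 higher and 1972 lower as reported, 2268 and 2291 at the same median, 1083 and 5944 with the controls, 1977 and 1452 without leukemic replicate 1, and 1544 and 1031 without leukemic replicate 2. The members' median above that of all genes was 0.33 as reported and 0.13 without probe sets of suffix _x_at, _s_at and _a_at, where Slc25a3 turned to -0.091. Scaled to the hybridization controls, log2 fold changes turned to -0.52 for Slc25a5, -0.67 for Slc25a33, -1.07 for Slc25a22, -1.02 for Timm8b, -0.27 for Tomm20l, -1.08 for Slc25a25, -0.69 for Slc25a36, -0.30 for Slc25a1, -0.16 for Slc25a47, -0.92 for Slc25a40, -1.12 for Slc25a39, -0.035 for Tomm40l, -0.75 for Tomm7, -0.24 for Timm13, -0.21 for Timm29, -0.99 for Timm22, -0.34 for Timm23, -0.48 for Timm44 and -0.89 for Timm17b. That scaling divides each group by 1 factor, which moves every gene the same way. Slc25a5 passed with quantile normalization, the mean of its probe sets, no suffixed probe sets, the replicate block or without Gr1/Mac1 replicate 1. The number of paralog pairs that did not overlap stayed between 5 and 9. The replicate block gave 24 members higher and 4 lower. Same-numbered arrays deviated with a correlation of -0.030 across genes. With so few arrays this value cannot decide whether same-numbered arrays were handled together.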
